A study of Mus musculus with 6 samples.

Results

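Ribosome biogenesis genes were examined in motor neuron progenitors grown from mouse embryonic stem cells, with 35 genes named from a list of nucleolar and ribosome assembly factors. All 35 were found by symbol among the 55400 genes of the deposited table, and all 35 passed the minimum level set for testing, a mean FPKM (fragments scaled by exonic length and by the library's total) of at least 1, as did 12199 genes in all. The list holds 4 genes of RNA polymerase I transcription, 3 of box C/D and 5 of box H/ACA small nucleolar ribonucleoproteins, 9 of small subunit and 10 of large subunit assembly, and 4 other nucleolar proteins. Expression was measured by RNA-seq of polyadenylated RNA in 6 libraries, 3 labelled control and 3 labelled Setd5sh. The control and Setd5sh cells alike came from C57BL/6 embryonic stem cells kept on mouse embryonic fibroblasts, and both groups carry the genotype label WT. Embryoid bodies of 500 cells received 1 µM retinoic acid and 0.5 µM SAG, an agonist of Sonic hedgehog signalling, from day 2, and were harvested on day 4. Doxycycline at 1 µg/mL, given 36 h earlier, is described for both groups. The labels do not spell out "Setd5sh", and what the control cells carried stays a point not given in the sources used here. No label says whether the replicates are separate cultures, and p-values therefore speak only of the spread among these 6 libraries, part of which may be technical.

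Ribosomes are built in the nucleolus, where RNA polymerase I transcribes a long precursor of the ribosomal RNAs. Small nucleolar RNAs, bound to core proteins, guide ribose methylation (box C/D) and pseudouridylation (box H/ACA) of that precursor, while assembly factors fold, cut and package it into the small and the large ribosomal subunit. The pathway uses much of the energy of a dividing cell, its output is set by growth signals and by Myc proteins, and defects in it are known to affect neural crest and other fast-growing embryonic cells.

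Total counts ranged from 19639303 to 32046466 per library. Setd5 ranged from 16.7 to 22.2 FPKM over the controls (22.2, 18.8 and 16.7 by replicate) and from 12.9 to 14.4 FPKM over the Setd5sh libraries (14.4, 13.5 and 12.9), a log2 fold change of -0.51 (SE 0.16, edgeR adjusted p = 0.995), which was -0.36 without control replicate 1. Summed over 8 markers of motor neuron progenitors (Olig2, Olig1, Nkx6-1, Nkx6-2, Sox2, Pax6, Sox1 and Nes), the level was 308 to 335 FPKM in control and 346 to 405 FPKM in Setd5sh, and each of the 8 passed the minimum level. Of 8 fibroblast markers, Postn and Lum were under 0.1 FPKM in every library and the sum was at most 9.29 FPKM. Control replicate 1 stood apart from the other 5 libraries. Compared count by count over genes, its chi-square per degree of freedom against each other library was 140 to 234, against 8.55 to 73.0 between any other pair. This measure rises with depth, and control replicate 1 had the highest total count. The closest pair, at 8.55, was control replicate 2 with Setd5sh replicate 2, while the closest within a group was control replicates 2 and 3, at 30.55. The members' counts, medians and log2 fold changes are given with and without control replicate 1, since it stood apart.

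Several results below are set beside the base composition of the transcripts, whose part in them was not tested. A stretch of coding sequence is therefore shown from the middle of 2 members with few G and C bases, Npm1 and Nop58, and 2 with many, Bop1 and Rrp9. Each line holds 30 codons, 5′ to 3′, from the longest annotated coding sequence in GENCODE release M21 (mm10 build), and capitals mark a G or C at the third position of a codon.
Npm1: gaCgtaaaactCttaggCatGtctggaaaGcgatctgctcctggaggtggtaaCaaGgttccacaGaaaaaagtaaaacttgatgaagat
Nop58: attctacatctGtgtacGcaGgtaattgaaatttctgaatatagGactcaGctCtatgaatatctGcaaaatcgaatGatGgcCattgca
Bop1: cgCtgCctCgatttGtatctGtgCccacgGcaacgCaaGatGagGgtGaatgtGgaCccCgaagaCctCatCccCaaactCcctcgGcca
Rrp9: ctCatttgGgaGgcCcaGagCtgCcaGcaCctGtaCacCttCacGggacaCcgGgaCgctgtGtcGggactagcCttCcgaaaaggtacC
Npm1 (chromosome 11, 33152287 to 33163206, minus strand) has a G or C at the third position in 8 of the 30 codons shown (132 to 161) and in 35.2% of all its codons. Nop58 (chromosome 1, 59684971 to 59719044, plus strand) has 10 of 30 in codons 254 to 283 and 37.1% overall. Bop1 (chromosome 15, 76452989 to 76477277, minus strand) has 21 of 30 in codons 352 to 381 and 67.8% overall. Rrp9 (chromosome 9, 106475963 to 106485424, plus strand) has 22 of 30 in codons 224 to 253 and 71.9% overall. Over all annotated transcripts of a gene, GC content ran from 41.2% in Npm1 to 58.7% in Rrp9. The median of the genes tested was 50.5%, and 17 members lay under it and 18 over it.

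All 35 genes were expressed in every library, over a wide range of levels. Npm1, which encodes nucleophosmin, a nucleolar chaperone of histones and ribosomal proteins, had the highest mean over the 6 libraries, 527 FPKM. Nhp2, a core protein of box H/ACA particles, followed at 165 FPKM, then Mybbp1a, a nucleolar protein that associates with the RNA polymerase I machinery, at 132 FPKM, and Ncl, which encodes nucleolin, an abundant RNA-binding protein of the nucleolus, at 126 FPKM. The lowest was Wdr12, a WD-repeat protein of the large subunit, at 7.61 FPKM. Together the members took 0.721% to 1.09% of all counts in a library. Npm1 and Ncl made much of that difference between libraries: without them the share was 0.577% in control replicate 1, which had the highest share with them, and 0.678% in Setd5sh replicate 1.

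Genes whose proteins work in one complex differed in level per length. In the PeBoW complex of the large subunit, Pes1 stood at 90.5 FPKM, Bop1 at 39.1 FPKM and Wdr12 at 7.61 FPKM. Among the box C/D core proteins, the methyltransferase fibrillarin (Fbl) stood at 88.7 FPKM, Nop56 at 86.8 FPKM and Nop58 at 18.1 FPKM. The box H/ACA core ran from Nhp2 at 165 FPKM through Nop10 at 65.8 FPKM and Gar1 at 57.6 FPKM to Dkc1, the pseudouridine synthase dyskerin, at 30.6 FPKM. The 9 small subunit factors lay closest together, from 13.1 FPKM in Utp20 to 31.2 FPKM in Nop14. The deposited length counts all annotated exons of a gene, which in 3 members is over 2 times the longest coding transcript: 3.52 times in Fbl, 3.13 times in Gnl3 and 2.18 times in Nop56. Per kilobase of the longest coding transcript instead, Fbl would stand at 312, Nop56 at 190 and Nop58 at 20.5, in the same order. Other orders would change: Gar1, at 77.6, would stand above Nop10, at 65.8, and Fbl and Nop56 above Nhp2, at 181.

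**Figure D1:**
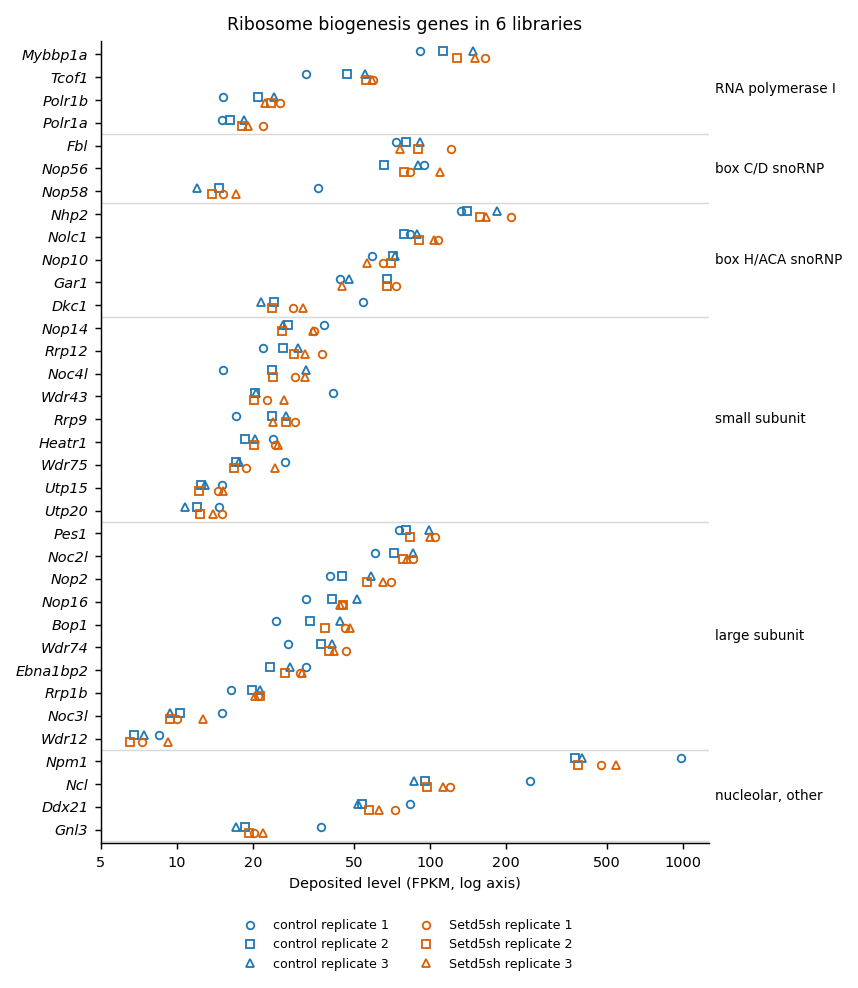
Deposited level of the 35 ribosome biogenesis genes in FPKM on a log axis, grouped by role and sorted by mean level; each symbol is 1 library, blue for control and orange for Setd5sh. The blue circle, control replicate 1, lies far to the right of the other libraries in Npm1, Ncl, Nop58, Dkc1, Gnl3 and Wdr43 and to the left in Noc4l, Bop1 and Tcof1.

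Setd5sh libraries were compared with control libraries to ask whether ribosome biogenesis genes differ when Setd5 is targeted. None of the 35 members passed, with edgeR adjusted p-values of at least 0.995, and none of all genes tested did (0.0%). At an unadjusted p under 0.05 edgeR had 0 members, against 1.22% of all genes, while DESeq2 and limma on log2(FPKM + 1) each had 1, Nop2, against 1.81% and 1.25% of all genes. The log2 fold change was above 0 in 26 of 35 members, against 42.6% of all genes. The members' median was 0.12, against -0.04 over all genes. Setd5sh was higher within all 3 pairs of the same replicate number in 9 members, against 12.7% of all genes, and lower in all 3 pairs in 0, against 12.6%. Over those 9 members the log2 difference within pair 3 ran from only 0.0023 in Pes1 to 0.21 in Nolc1. Pair 1 draws on control replicate 1. The labels do not give the pairing, and pairs 1 and 3 are weakly supported. After TMM scaling, groups overlapped in all 35 members, while 2.63% of all genes had Setd5sh wholly above and 2.66% wholly below control. In deposited FPKM, which is not scaled beyond the total, the groups did not overlap in 2 members, Tcof1 and Nolc1, both higher in Setd5sh, against 3.07% of all genes, and in 0 with Setd5sh lower, against 2.14%. In bulk samples such as these, fewer cells of a type and less RNA per cell cannot be told apart.

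The 4 genes of RNA polymerase I transcription all had positive log2 fold changes, from 0.24 to 0.37. Tcof1, which encodes treacle, a nucleolar protein that brings RNA polymerase I factors to the ribosomal genes, lies on chromosome 18 from 60813755 to 60848971. With the replicates of a group in the order 1, 2 and 3, here and below, it stood at 32.3, 46.9 and 55.1 FPKM in the controls and at 59.4, 55.6 and 59.1 FPKM in the Setd5sh libraries. In FPKM the Setd5sh values were close together, just above the highest control, and control replicate 1 was the lowest of all. After TMM scaling Setd5sh replicate 2 lay below control replicate 3, at log2 levels of 0.32 and 0.33 relative to the control mean. The means were 44.8 ± 11.5 and 58.0 ± 2.07 FPKM (SD, n = 3 each), with a log2 fold change of 0.37 (SE 0.19, edgeR adjusted p = 0.995) that was 0.21 without control replicate 1. Polr1a, the largest subunit of the polymerase, on chromosome 6 from 71909053 to 71984935, stood at 15.0, 16.1 and 18.3 FPKM in the controls and at 21.9, 18.1 and 19.0 FPKM in the Setd5sh libraries. Setd5sh replicate 2 fell inside the control range, and Setd5sh was the higher library in each pair. Its log2 fold change was 0.25 (SE 0.15, edgeR adjusted p = 0.995), and 0.22 without control replicate 1. Polr1b, the second-largest subunit, and Mybbp1a were at log2 fold changes of 0.24 (SE 0.18) and 0.33 (SE 0.21), which were 0.10 and 0.21 without control replicate 1.

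The box C/D genes went both ways. Nop58, a scaffold protein of these particles, stood at 35.9, 14.6 and 11.98 FPKM in the controls and at 15.2, 13.8 and 17.1 FPKM in the Setd5sh libraries. Only control replicate 1 lay far from the rest, and the other 2 controls spanned values close to those of Setd5sh. Its log2 fold change was -0.47 (SE 0.40, edgeR adjusted p = 0.995) and turned to 0.24 without control replicate 1. Fbl, on chromosome 7 from 28169710 to 28179269, stood at 73.6, 80.0 and 91.4 FPKM in the controls and at 121, 89.9 and 76.3 FPKM in the Setd5sh libraries. Setd5sh replicate 1 was the highest, and Setd5sh replicates 2 and 3 lay inside the control range. The log2 fold change was 0.22 (SE 0.20, edgeR adjusted p = 0.995), and was 0.19 without control replicate 1 but 0.0036 without Setd5sh replicate 1. Nop56, the partner of Nop58 in the particle, stood at 94.3, 66.01 and 89.2 FPKM in the controls and at 83.3, 78.9 and 109 FPKM in the Setd5sh libraries. The groups overlapped broadly, at a log2 fold change of 0.11 (SE 0.21, edgeR adjusted p = 0.995), which was 0.25 without control replicate 1.

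Of the box H/ACA genes, Nolc1, a nucleolar phosphoprotein that binds and chaperones small nucleolar ribonucleoproteins, stood at 83.4, 78.5 and 88.7 FPKM in the controls and at 107, 90.2 and 104 FPKM in the Setd5sh libraries. Each Setd5sh library was above each control in FPKM, with Setd5sh replicate 2 close to the highest control. Its means were 83.5 ± 5.10 and 100.3 ± 8.99 FPKM (SD, n = 3 each), with a log2 fold change of 0.25 (SE 0.15, edgeR adjusted p = 0.995), and 0.29 without control replicate 1. Nhp2 stood at 133, 140 and 184 FPKM in the controls and at 208, 158 and 166 FPKM in the Setd5sh libraries. Control replicate 3 exceeded 2 of the 3 Setd5sh libraries, and the log2 fold change was 0.21 (SE 0.19, edgeR adjusted p = 0.995). Gar1 had 0.22 (SE 0.23) and Nop10, the smallest protein of the particle, -0.09 (SE 0.15). Without control replicate 1 Gar1 was at 0.13, Nhp2 at 0.16 and Nop10 at -0.15, the 1 member below 0 both with and without that library. Dkc1, named after its values were seen, stood at 54.5, 24.3 and 21.5 FPKM in the controls and at 28.6, 23.7 and 31.3 FPKM in the Setd5sh libraries, and its log2 fold change of -0.29 (SE 0.36) turned to 0.32 without control replicate 1.

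Among the 9 small subunit factors, 7 had positive and 2 negative log2 fold changes, with a median of 0.12. Rrp12, a HEAT-repeat factor in the processing and export of pre-ribosomal particles, on chromosome 19 from 41862851 to 41896173, stood at 21.8, 26.2 and 30.1 FPKM in the controls and at 37.3, 28.9 and 31.95 FPKM in the Setd5sh libraries. Setd5sh replicate 2 was the single Setd5sh library below the highest control. The log2 fold change was 0.33 (SE 0.17, edgeR adjusted p = 0.995), and 0.25 without control replicate 1. Rrp9, a protein of the U3 particle that starts small subunit assembly, stood at 17.1, 23.7 and 27.0 FPKM in the controls and at 29.3, 26.9 and 24.0 FPKM in the Setd5sh libraries. Its groups overlapped, control replicate 1 was the lowest library, and the log2 fold change of 0.24 (SE 0.19, edgeR adjusted p = 0.995) was 0.10 without that library. Of the 4 members of the early-binding subcomplex that links the processome to transcription, Heatr1 had 0.14 (SE 0.18), Utp15 0.04 (SE 0.17), Wdr75 -0.06 (SE 0.24) and Wdr43 -0.27 (SE 0.31). Without control replicate 1 these 4 values were 0.28, 0.17, 0.23 and 0.21. Nop14 and Noc4l, which bind each other in the small subunit precursor, had 0.04 (SE 0.21) and 0.26 (SE 0.26), and Utp20, a very large scaffold protein, had 0.12 (SE 0.18). Without control replicate 1 the values of Nop14, Noc4l and Utp20 were 0.27, 0.05 and 0.30, so that Nop14 then stood above Noc4l.

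Nop2 had the largest positive log2 fold change of the 35 members. It encodes a cytosine methyltransferase of the large subunit ribosomal RNA and lies on chromosome 6 from 125131909 to 125144753. Its level was 40.2, 45.0 and 58.2 FPKM in the controls and 70.2, 56.5 and 65.3 FPKM in the Setd5sh libraries, so that Setd5sh replicate 2 alone lay inside the control range. The means were 47.8 ± 9.31 and 64.0 ± 6.95 FPKM (SD, n = 3 each), with a log2 fold change of 0.42 (SE 0.18, edgeR adjusted p = 0.995, unadjusted 0.0513), which was 0.34 without control replicate 1. Bop1, of the PeBoW complex, stood at 24.5, 33.4 and 44.0 FPKM in the controls and at 46.0, 38.3 and 48.4 FPKM in the Setd5sh libraries. The control values spread more than those of Setd5sh, and Setd5sh replicate 2 lay inside their range. Its log2 fold change was 0.38 (SE 0.22, edgeR adjusted p = 0.995), and 0.22 without control replicate 1. The other 8 large subunit factors ran from -0.13 in Noc3l to 0.28 in Wdr74, a factor of a large subunit precursor. Of these, Pes1 and Wdr74 were higher in Setd5sh in all 3 pairs, though in pair 3 by log2 differences of only 0.0023 and 0.017. Noc2l and Noc3l, which form complexes on successive precursors, had 0.16 (SE 0.16) and -0.13 (SE 0.24). Ebna1bp2, Rrp1b, Nop16 and Wdr12 had 0.07, 0.12, 0.10 and 0.02. Without control replicate 1 these 4 stood at 0.23, 0.05, -0.02 and 0.15, and Pes1, Wdr74, Noc2l and Noc3l at 0.13, 0.16, 0.08 and 0.15.

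Of the 4 other nucleolar genes, 3 had negative log2 fold changes with all 6 libraries and all 4 positive ones without control replicate 1. Npm1 stood at 984, 376 and 399 FPKM in the controls and at 474, 385 and 544 FPKM in the Setd5sh libraries. Control replicate 1 was far above the other 5 libraries, of which control replicates 2 and 3 were the first and the third from the bottom. The means were 586 ± 345 and 468 ± 79.7 FPKM (SD, n = 3 each), with a log2 fold change of -0.35 (SE 0.39, edgeR adjusted p = 0.995), which turned to 0.30 (SE 0.18) without that library. Ncl, on chromosome 1 from 86344719 to 86359400, stood at 248, 95.3 and 86.7 FPKM in the controls and at 119, 96.9 and 112 FPKM in the Setd5sh libraries. All 3 Setd5sh libraries were above control replicates 2 and 3 and below control replicate 1. Its log2 fold change was -0.42 (SE 0.41, edgeR adjusted p = 0.995), and 0.30 (SE 0.16) without that library. Gnl3, which encodes the GTP-binding protein nucleostemin, had -0.27 (SE 0.31) and 0.22 in the same order, and Ddx21, a nucleolar RNA helicase, 0.01 (SE 0.23) and 0.31.

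**Figure D2:**
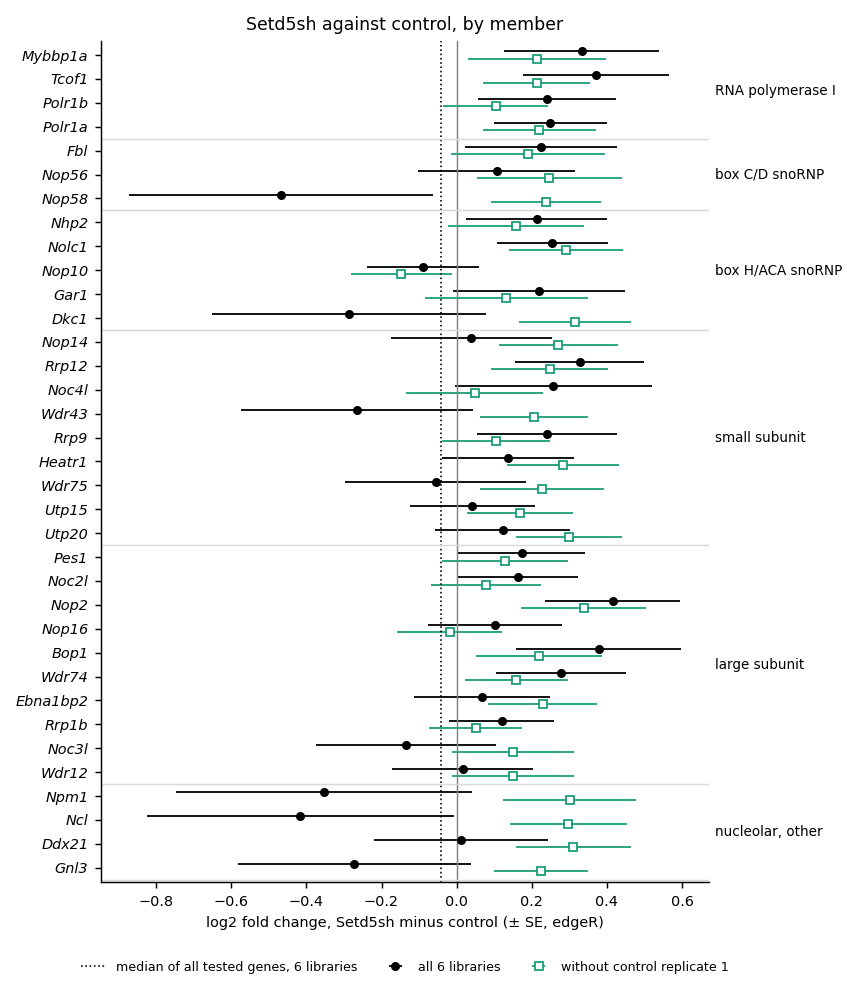
Log2 fold change of each member, Setd5sh minus control, with a standard error derived from the edgeR test statistic. Filled circles use all 6 libraries and open squares leave out control replicate 1. The dotted line is the median of all tested genes at -0.04. With all 6 libraries 26 of 35 circles lie above 0, and without control replicate 1 33 of 35 squares do, all but Nop10 and Nop16.

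Without control replicate 1, 8 of the 9 members with a negative log2 fold change turned positive. In that fit 33 of 35 members were above 0, against 51.5% of all genes, and the members' median was 0.21, against 0.01 over all genes. Members share the same libraries and are not replicates, and lopsided counts also arose within a group. Setd5sh replicate 1 was above the mean of its group's other 2 libraries in 31 of 35 members, Setd5sh replicate 2 in 3 and Setd5sh replicate 3 in 22. For control replicates 1, 2 and 3 these counts were 17, 8 and 20. No member passed in the fit without control replicate 1 either, and edgeR again had 0 members at an unadjusted p under 0.05, against 2.96% of all genes. Without control replicate 3 instead, 6 members were under it (Tcof1, Mybbp1a, Noc4l, Rrp12, Bop1 and Nop2), against 7.89% of all genes. In the fit with a replicate block and pair 3 left out, 0 members passed, while 3.57% of all genes did, and 6 members had an unadjusted p under 0.05, against 13.1%. The level in control replicate 1 was 2.73 times the mean of the other 2 controls in Ncl, 2.70 times in Nop58, 2.54 times in Npm1, 2.38 times in Dkc1, 2.08 times in Gnl3 and 2.02 times in Wdr43. It was 0.546 times that mean in Noc4l, 0.633 times in Bop1 and 0.634 times in Tcof1. Control replicate 1 was the highest of the 6 libraries in 13 members and the lowest in 12. Of all genes tested, it was the highest in 35.4% and the lowest in 31.5%.

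These departures followed GC content. Of the 13 members highest in control replicate 1, 12 had a GC content under the median of all genes, and all 12 members lowest there were over it. Over all genes, 60.4% of those under the median were highest and 52.2% of those over it lowest in that library. Across the 35 members, the log2 difference of control replicate 1 from the mean of the other 2 controls correlated with GC content at a Pearson r of -0.86 (Spearman rho -0.86). The same r was -0.76 over 138 other ribosome biogenesis genes and -0.62 over 12190 genes. These are descriptions across genes, which share the same 6 libraries and are not replicates. The 17 members under the median had a median difference of 0.70 and the 18 over it one of -0.29, against 0.41 and -0.32 over all genes.

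The fold changes, whose controls include control replicate 1, followed GC content in the opposite direction. Both trends draw on that library and are not separate findings. All 18 members over the median GC content had a positive log2 fold change, from 0.07 to 0.42, and all 9 negative ones lay under it. Of all genes, 60.8% of those over the median GC content and 24.4% of those under it were positive. The r of fold change with GC content was 0.85 over members and 0.43 over all genes, and without control replicate 1 it was -0.24 and -0.13. Without that library the median of the 17 members under the median GC content went from -0.06 to 0.24, and that of the 18 over it from 0.24 to 0.17. Over all genes the median went from -0.15 to 0.04 under the median GC content and from 0.05 to -0.03 over it. When a smooth trend of counts on exonic length and GC content was taken out of each library, 31 of 35 members were above 0, against 53.6% of all genes, with a median of 0.17 against 0.02. After that removal the r with GC content was still 0.64 over members, against 0.03 over all genes. The 4 below 0 were Nop58, Dkc1, Wdr43 and Ncl. With the replicate number as a block beside that removal, 8 members had an unadjusted p under 0.05 in edgeR, against 7.61% of all genes. These were Tcof1, Mybbp1a, Heatr1, Utp20, Rrp12, Bop1, Nop2 and Wdr74, all higher in Setd5sh, and the lowest adjusted p was 0.598.

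**Figure D3:**
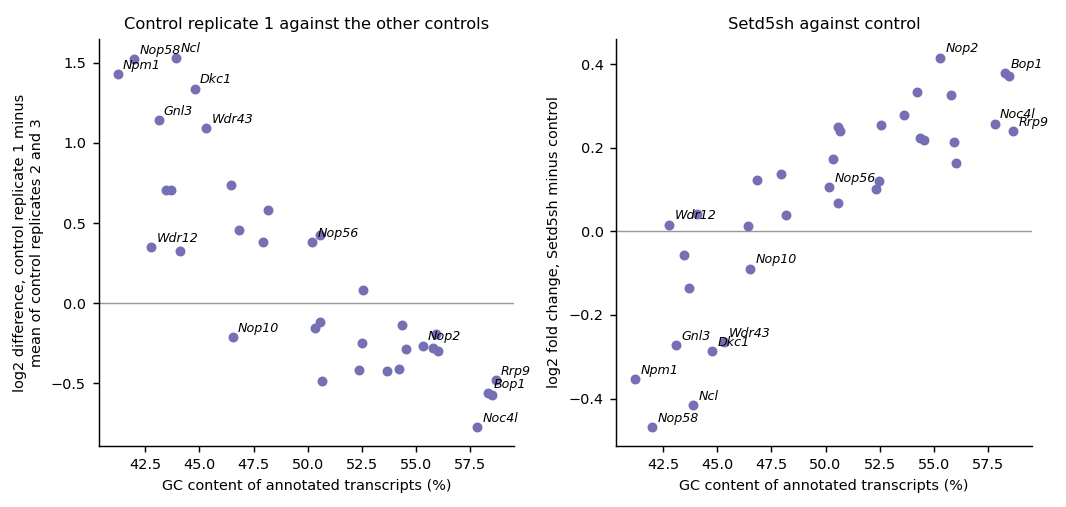
GC content of the annotated transcripts of each of the 35 members, in percent, against (left) the log2 difference of control replicate 1 from the mean of control replicates 2 and 3, and (right) the log2 fold change of Setd5sh against control. Members with little GC, such as Npm1 and Nop58, are high on the left and low on the right, and members with much GC, such as Bop1 and Rrp9, the reverse (Pearson r of -0.86 and 0.85). Both panels draw on control replicate 1.

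Averaged over the 35 members, the log2 level relative to the control mean was 0.13, -0.15 and 0.02 over the controls and 0.22, -0.04 and 0.16 over the Setd5sh libraries. Setd5sh replicate 2 lay between the controls, and Setd5sh replicates 1 and 3 stood above all 3 of them, replicate 3 by 0.03. The 18 members over the median GC content averaged -0.20, -0.04 and 0.24 in control and 0.41, 0.15 and 0.22 in Setd5sh. The 17 under it averaged 0.48, -0.27 and -0.21 in control and 0.02, -0.24 and 0.09 in Setd5sh. For scale, the mean over members differed between replicates of a group with an SD of 0.14.

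Other lists also differed between these libraries. Genes of the integrated stress response, of which 11 were tested, averaged 0.10, -0.20 and 0.09 in control and 1.11, 0.06 and 0.95 in Setd5sh, so that Setd5sh replicates 1 and 3 stood high and replicate 2 did not. For the 4 tested of 8 neuron markers, the averages were 0.45, -0.39 and -0.06 in control and 0.89, 0.13 and 0.92 in Setd5sh. Summed over all 8, neuron markers were at 28.7 to 39.6 FPKM in control and 44.7 to 77.6 FPKM in Setd5sh. The 8 cell cycle markers averaged 0.31, -0.28 and -0.03 in control and -0.02, -0.21 and 0.19 in Setd5sh. Pluripotency markers summed to 19.0 to 83.2 FPKM in control and 9.11 to 62.1 FPKM in Setd5sh, highest in the libraries numbered 2. Their part in the members' levels was not tested. The 79 cytosolic ribosomal protein genes, whose products the pathway assembles, averaged -0.15, 0.08 and 0.08 in control and 0.11, 0.15 and -0.22 in Setd5sh. Setd5sh replicate 3 was thus their lowest library, while it was above all controls for the members. Their median log2 fold change was 0.04, and -0.04 without control replicate 1.

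**Figure D4:**
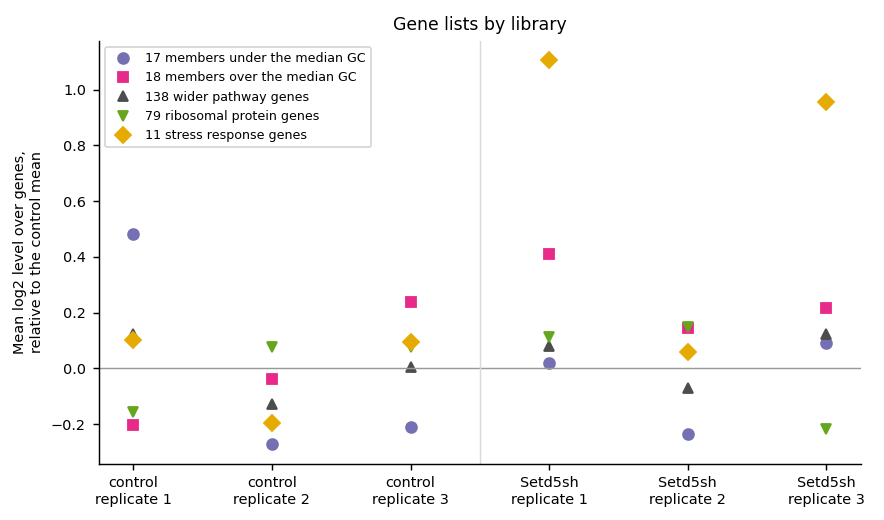
Mean log2 level over the genes of a list in each library, relative to the mean of the 3 control libraries, for members under and over the median GC content, the 138 wider pathway genes, 79 ribosomal protein genes and 11 stress response genes. Members under the median GC content stand at 0.48 in control replicate 1 and members over it at -0.20, and stress response genes stand at 1.11 and 0.95 in Setd5sh replicates 1 and 3.

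Of the 19 small nucleolar RNA genes that GENCODE places inside members on the same strand, 5 lie in Nop56, 4 in Nop58, 3 each in Wdr43, Ncl and Gnl3, and 1 in Dkc1. Such RNAs are cut from introns of their host genes. All 6 hosts lay under the median GC content, at a median of 44.3% against 52.3% in the other members, and 5 of 6 had a negative log2 fold change. Their median was -0.28 against 0.17 in the other members, and 0.24 against 0.19 without control replicate 1. Polyadenylated RNA does not measure the small nucleolar RNAs themselves. In 15 members a gene on the other strand overlaps the locus, for example Parp3 at Rrp9 and Pbrm1 at Gnl3. The strand setting of the counting is a detail not given in the sources used here, so reads from such pairs may not be told apart.

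A further 138 genes of ribosome biogenesis were all expressed enough to be tested. None passed, and edgeR had 0 at an unadjusted p under 0.05 (1.22% of all genes), as did DESeq2 (1.81%) and limma on log2(FPKM + 1) (1.25%). The log2 fold change was above 0 in 87 of 138, against 42.6% of all genes, with a median of 0.06. Leaving out control replicate 1 made this 121 of 138, against 51.5%, and the median 0.13. In all 3 pairs 33 genes were higher, against 12.7% of all genes, and 4 lower, against 12.6%. After TMM scaling the groups did not overlap in 8 of 138 with Setd5sh higher, against 2.63% of all genes. They did not overlap in 2 with Setd5sh lower, against 2.66%. By part of the pathway, 7 of 13 genes of RNA polymerase I transcription were above 0, as were 8 of 12 of small nucleolar ribonucleoproteins, 30 of 49 of the small subunit, 35 of 51 of the large subunit and 7 of 13 of the exosome, the nuclease complex that trims ribosomal RNA.

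The 3 wider pathway genes with the smallest p among positive fold changes were Wdr46, Ubtf and Pwp2. Picking by p, here and for the negative ones below, favours genes whose groups do not overlap. Ubtf, which encodes the upstream binding factor that keeps ribosomal genes open for RNA polymerase I, stood at 35.7, 40.6 and 43.0 FPKM in the controls and at 51.8, 45.4 and 50.3 FPKM in the Setd5sh libraries. Each Setd5sh library was above each control, with a log2 fold change of 0.30 (SE 0.14, edgeR adjusted p = 0.995), and 0.26 without control replicate 1. Pwp2, a small subunit scaffold protein, stood at 14.8, 19.1 and 21.1 FPKM in the controls and at 23.8, 23.0 and 22.8 FPKM in the Setd5sh libraries, again without overlap, at 0.33 (SE 0.16), and 0.23 without control replicate 1. Wdr46, another small subunit factor, was at 22.2, 27.6 and 33.95 FPKM in the controls and at 39.3, 32.6 and 39.5 FPKM in the Setd5sh libraries. Setd5sh replicate 2 lay inside the control range, and the log2 fold change was 0.41 (SE 0.18), and 0.30 without control replicate 1. The 3 with the smallest p among negative ones were C1d, an exosome cofactor, at -0.46 (SE 0.22), Naf1, an assembly factor of box H/ACA particles, at -0.25 (SE 0.13), and Esf1, a small subunit factor, at -1.01 (SE 0.62). Naf1 stood at 20.9, 24.1 and 22.0 FPKM in the controls and at 17.7, 19.8 and 19.3 FPKM in the Setd5sh libraries, so that each Setd5sh library was below each control, and its log2 fold change was -0.26 without control replicate 1. C1d was at 12.9, 9.02 and 8.21 FPKM in the controls and at 7.11, 6.94 and 8.21 FPKM in the Setd5sh libraries. Its groups did not overlap after TMM scaling, but in FPKM replicate 3 was equal in both. Without control replicate 1 its log2 fold change was -0.19, and with the length and GC trend taken out it was -0.085. Esf1 stood at 24.0, 5.36 and 4.42 FPKM in the controls and at 5.56, 5.14 and 6.55 FPKM in the Setd5sh libraries, and its log2 fold change turned to 0.26 without control replicate 1.

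Myc, a transcription factor known to activate genes of this pathway, stood at 6.36, 7.43 and 11.1 FPKM in the controls and at 13.7, 10.3 and 16.9 FPKM in the Setd5sh libraries. Setd5sh was higher in each pair, with Setd5sh replicate 2 below control replicate 3, and the log2 fold change was 0.72 (SE 0.27, edgeR adjusted p = 0.995, unadjusted 0.0294), which was 0.59 without control replicate 1. Mycn, its relative in neural progenitors, stood at 38.7, 38.4 and 42.2 FPKM in the controls and at 47.1, 40.8 and 42.3 FPKM in the Setd5sh libraries, a log2 fold change of 0.12 (SE 0.14, edgeR adjusted p = 0.995), and 0.13 without that library.

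Myc proteins bind the E-box CACGTG, which reads the same on both strands, and this motif was searched in RefSeq promoters (GRCm38.p6, from 250 bases before to 50 after each start). It was found in 5 of the 30 members with an entry, 16.7% (95% Wilson interval 7.34% to 33.6%). Of all 27025 genes with an entry, 8.09% held it in any window, as did 7.15% of all 32851 windows taken singly. This background was not limited to genes that passed the minimum level for testing, as all members did. The interval treats the members as a random sample, while they were chosen by name. Tcof1, Fbl, Rrp12, Bop1 and Npm1 had no entry. The windows are shown because the members with a match differ in where it lies, with the motif in capitals. The first line is the 250 bases before the start of Nop2, chr6:125131633-125131882 on the plus strand, and the others are 30 bases around the motif.
Nop2: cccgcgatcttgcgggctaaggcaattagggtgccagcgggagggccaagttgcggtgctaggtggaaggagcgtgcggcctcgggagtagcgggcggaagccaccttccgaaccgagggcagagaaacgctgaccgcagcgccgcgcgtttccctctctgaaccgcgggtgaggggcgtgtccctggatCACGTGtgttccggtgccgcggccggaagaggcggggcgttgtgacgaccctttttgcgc
Utp20: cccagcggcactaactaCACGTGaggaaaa
Pes1: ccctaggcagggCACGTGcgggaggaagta
Mybbp1a: aagtgactgtcttctgagccCACGTGtttg
Wdr43: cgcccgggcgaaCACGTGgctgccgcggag
In Nop2 the motif begins 60 bases before the start. In the other 4 it begins after the start, at base 38 in Utp20 (chr10:88826765-88826794, minus strand), 3 in Pes1 (chr11:3963965-3963994, plus strand), 41 in Mybbp1a (chr11:72441347-72441376, plus strand) and 18 in Wdr43 (chr17:71616220-71616249, plus strand). In the 250 bases before the start alone, 1 of 30 members, Nop2, held it, 3.33%, against 6.86% of all genes with an entry. Taken singly, 6.02% of all windows held it there. Among the 5 members with a match, log2 fold changes were 0.42 in Nop2, 0.33 in Mybbp1a and 0.17 in Pes1. Utp20 and Wdr43 were at 0.12 and -0.27. Leaving out control replicate 1 gave 0.34, 0.21 and 0.13 in Nop2, Mybbp1a and Pes1, and 0.30 and 0.21 in Utp20 and Wdr43. Utp20 and Wdr43 then stood above Pes1. In Nop2, Mybbp1a and Pes1 each Setd5sh library exceeded its paired control, as in 9 of 35 members and 12.7% of all genes. A match is a description of these letters and not a binding site, and no binding was measured.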

How the data were processed

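The authors deposited a table with a raw count and an FPKM value per library for 55400 genes. The mm10 build and the tools HISAT2, SAMtools, HTSeq and DESeq2 are named in the submitters' processing notes, with versions, annotation release and strand setting not given in the sources used here. FPKM as deposited equals count over exonic length and total count, to within 0.005. Symbols, loci and GC content came from GENCODE M21, in which 99.5% of identifiers were found.

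Counts were tested with edgeR 4.0.16 (quasi-likelihood, TMM, two-sided, R 4.3.3) on 12199 genes with a mean FPKM of at least 1, with Benjamini-Hochberg adjustment and a threshold of 0.05. That test gives no standard error, so SE is the absolute log2 fold change over the square root of its F statistic. log2 levels per library are CPM with a prior count of 2. DESeq2 1.42.0 and limma 3.58.1 (pseudocounts 1 and 0.1 on FPKM), other scalings and filters, GC and length trends (mgcv 1.9.3), the replicate block and left-out libraries were alternatives. The fits were tested on simulated data. Figures used matplotlib 3.10.9.

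Same-numbered libraries deviated together from their group means, at correlations of 0.185, 0.69 and 0.127, all over 0.1. On that basis, which the labels do not give, equal numbers are treated as pairs. Control replicate 1 had a higher correlation with Setd5sh replicate 3, at 0.191, so pairs 1 and 3 are weakly supported.

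The members and lists were chosen with earlier results of these data known. Values per library are given for the 2 members with the smallest p in each role, for Nop56, Fbl, Ncl, Npm1 and Polr1a, for Setd5, Myc and Mycn, and, of the wider pathway, for the 3 smallest p among positive and among negative fold changes; Dkc1 was added after its values were seen. Groups came from the sample titles.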

Additional observations from a re-analysis of the deposited data

How the results depend on the processing

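No member passed in any of the 22 alternatives, and the members' median log2 fold change was positive in each. The replicate block changed no call: with it in edgeR, 0 members and 0 wider pathway genes passed and the members' median was 0.13. The number of members below 0, 9 with all libraries, was 4 with the GC and length trend removed, 3 with the replicate block beside it, 4 with the block without pair 1, and 2 (without control replicate 1) to 15 (without control replicate 2) when single libraries were left out. The wider pathway had 2 calls of 138 with the block without pair 3, where 3.57% of all genes passed: Esf1 at -1.09 (edgeR adjusted p = 0.00602) and Nol8, both far higher in control replicate 1 than elsewhere, at 24.0 and 8.19 FPKM. In the 250 bases before the start alone the E-box share was 3.33%.

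Signs of these single genes turned under the settings named, and the cause was not tested. Leaving out single libraries gave log2 fold changes of -0.0395 to 0.17 in Utp15, -0.0601 to 0.27 in Nop14, -0.11 to 0.31 in Ddx21, -0.22 to 0.23 in Wdr75, -0.057 to 0.25 in Nop56, -0.13 to 0.16 in Wdr12, -0.75 to 0.24 in Nop58, -0.53 to 0.32 in Dkc1, -0.46 to 0.21 in Wdr43, -0.27 to 0.15 in Noc3l, -0.018 to 0.29 in Nop16, -0.68 to 0.30 in Ncl, -0.61 to 0.30 in Npm1, -0.48 to 0.23 in Gnl3, -1.40 to 0.26 in Esf1 and -0.071 to 0.23 in Ebna1bp2. With GC and length trends removed, Nop10 was at 0.039, Wdr75 at 0.16, Noc3l at 0.0698, Npm1 at 0.053 and Gnl3 at 0.036. With the replicate block beside that, Nop58 was at 0.0028, Nop10 at 0.051, Wdr75 at 0.16, Noc3l at 0.068, Npm1 at 0.075 and Gnl3 at 0.047. Wdr75 was at 0.002 with the length trend alone removed and at 0.027 with no filter. The replicate block without pair 1 gave Fbl -0.034, Nop58 0.23, Dkc1 0.27, Gar1 -0.034, Wdr43 0.19, Wdr75 0.23, Noc3l 0.16, Nop16 -0.022, Ncl 0.21, Npm1 0.25, Gnl3 0.22 and Esf1 0.26. The block without pair 3 gave Nop10 0.068, Utp15 -0.029, Nop14 -0.099, Wdr12 -0.12 and Ddx21 -0.052. Fits without a pair leave 1 residual degree of freedom. With 3 libraries a group, members' standard errors of 0.14 to 0.41 limit what could pass.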
